A study of Mus musculus with 8 samples.

Results

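Genes of the major histocompatibility complex (MHC) and of antigen processing were followed in the epididymal white fat of male mice, a visceral depot beside the testis. They were taken by symbol from the GENCODE M21 annotation: protein-coding genes whose name begins with H2-, together with Cd74, Ciita, Nlrc5, B2m, Tap1, Tap2, Tapbp and Tapbpl, Psmb8, Psmb9, Psmb10, Cd1d1 and Erap1. The rule found 38 of the 24821 genes in the table, of which 26 belong to the class I pathway and 11 to the class II pathway. The last, H2-Ke6, lies in the MHC region but encodes a hydroxysteroid dehydrogenase. It averaged 21.4 ± 9.71 normalized counts in KO and 15.7 ± 4.78 in WT (SD, n = 4 each) and did not pass the test (limma adjusted p = 0.55).

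Messenger RNA was sequenced from 4 Ccdc92 knockout (KO) libraries and 4 wild type (WT) libraries. All mice were C57BL/6 males, the WT mice were littermates of the same age, and both groups were kept for 14 weeks on a high-fat diet in which fat gave 60% of the calories, and protein and carbohydrate 20% each. The labels do not say which part of Ccdc92 was deleted, whether the deletion was in all cells, or whether each library came from a separate animal. The p-values therefore speak only of the spread among these libraries, part of which may be technical. Below, values for 4 libraries are always given for replicates 1 to 4 in that order, and a log2 fold change is the KO mean minus the WT mean of log2(normalized count + 1).

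Class I molecules are built from a heavy chain and beta-2 microglobulin and show peptides from inside the cell to CD8 T cells. Those peptides are cut by the proteasome, carried into the endoplasmic reticulum by the TAP transporter and loaded with the help of tapasin. Class II molecules pair an alpha with a beta chain on the invariant chain, exchange its fragment for a peptide in the endosome with the help of H2-DM, and show it to CD4 T cells. Class II is made mainly by dendritic cells, macrophages and B cells under the transactivator Ciita, while nearly all nucleated cells carry class I. Adipose tissue macrophages and adipocytes are both known to display antigen in obesity.

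The targeted gene had 9.2, 5.1, 9.7 and 4.9 normalized counts in KO, against 54.1, 68.3, 105.8 and 99.2 in WT (log2 fold change -3.34, SE 0.33, limma adjusted p = 0.000383). The groups did not overlap, and an exact permutation test (two-sided, 70 splits) returned its smallest possible p, 0.0286. Recovered reads ran from 23681088 to 33817478 per library. Summed markers of adipocytes were 698335 to 942184 normalized counts in KO and 154215 to 342461 in WT, and those of macrophages were 47257 to 73497 in KO and 124804 to 260961 in WT. Transcripts of the male tract summed to 9.7 to 700 in KO and 50199 to 112590 in WT, with 4 of 5 tested genes lower. Among them, Akr1b7 had 80635.9 normalized counts in WT replicate 4, against 188.1, 211.6 and 196.8 in WT replicates 1 to 3. Adam7 had 0.9 in WT replicate 4, against 7804.6, 19828.7 and 17380.5 in WT replicates 1 to 3. The liver transcript Alb had 407.5 to 843.4 normalized counts in KO, against 31.2, 61.5, 35472.2 and 42.1 in WT. In bulk tissue, fewer cells of a type and less RNA per cell cannot be told apart. The part of these transcripts in the results below was not tested. Where values without a library are given, they cannot test a difference that runs across all libraries.

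Of the class I genes, 4 rose and 5 fell in KO fat, while all 3 class II genes that passed the test fell. The largest called changes were a 3.28-fold rise of Cd1d1, which presents lipids, and a fall of 1.95 on the log2 scale of H2-M2, a nonclassical heavy chain. The class II transactivator Ciita and the peptide exchange chain H2-DMb1 also fell. The 9 calls among 25 class I genes tested are 36.0%, and the 3 among 11 class II genes are 27.3%. Over all 17798 genes tested, 41.7% passed the threshold of 0.05 on the adjusted p, with 20.2% higher in KO and 21.5% lower, so the share called in either class was below that of all genes. In 9 of 25 class I genes and 3 of 11 class II genes no KO library overlapped the WT libraries, as in 42.1% of all genes. Quantile normalization moved the split over all genes to 4593 higher and 3257 lower, against 3592 and 3831 as deposited, and the class I split to 4 and 4.

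The median log2 fold change was -0.20 over class I and -0.56 over class II, beside -0.01 over all genes, whose middle 50% ran from -0.43 to 0.37. All 11 class II values were negative, from -1.60 to -0.45, as were 20 of the 25 class I values, which ran from -1.95 to 1.72. Among all genes, 50.5% were negative. H2-M5, a class I gene, stayed below the filter of 10 normalized counts in at least 4 libraries, with 2, 7, 0 and 8 reads in KO and 3, 6, 2 and 4 in WT.

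**Figure D1:**
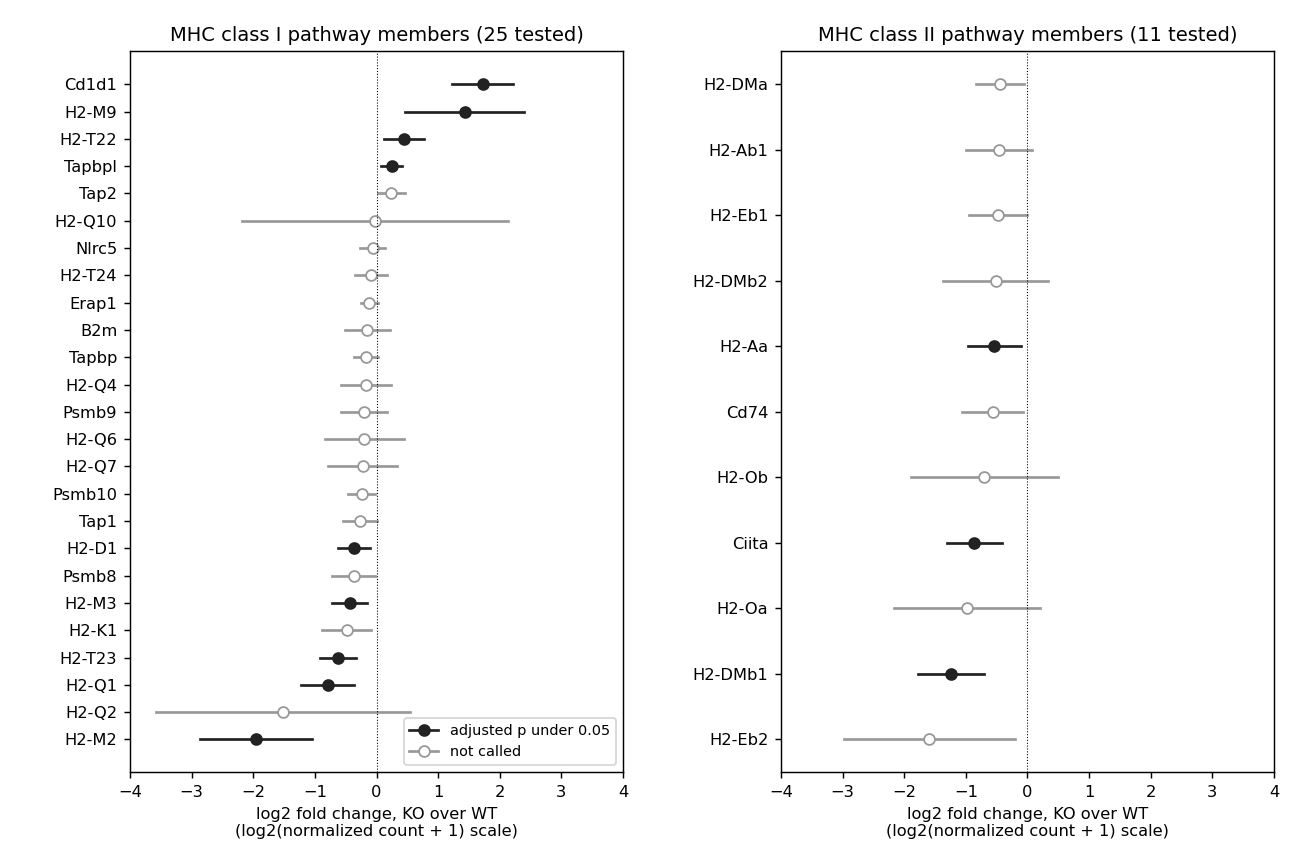
Log2 fold change of KO over WT (x axis, log2 of normalized count + 1) for the 25 tested class I genes (left) and 11 class II genes (right), 1 gene per line, with the 95% interval from limma as the bar. Dark filled points passed at an adjusted p under 0.05. Cd1d1 at 1.72 and H2-M2 at -1.95 are the extremes of class I, and all 11 class II points lie below 0.

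The classical heavy chains H2-K1 and H2-D1 carry most class I peptide. H2-D1 (chr17:35262730-35267499, plus strand, GRCm38) had 46005.2, 48121.1, 56008.5 and 45818.9 normalized counts in KO, against 60679.8, 64980.2, 61047.7 and 64399.2 in WT. Every KO library was below every WT library, and H2-D1 fell by 0.36 on the log2 scale (SE 0.11, limma adjusted p = 0.0317). The call was lost when KO replicate 1, 2 or 4 was left out (adjusted p 0.0919, 0.0602 and 0.0732) or WT replicate 2, 3 or 4 (0.0624, 0.0768 and 0.0712), and in edgeR with all libraries (0.0515), with fold changes between -0.54 and -0.33 over all 18 alternatives. H2-K1 (chr17:33996017-34000347, minus strand) had 28412.1, 29729.6, 35575.8 and 25185.2 normalized counts in KO, against 31875.0, 50963.9, 39353.4 and 45294.5 in WT. KO replicate 3 lay above WT replicate 1, and the fold change of -0.48 (95% interval -0.88 to -0.09) did not pass (limma adjusted p = 0.0515), although it did in 5 of the 18 alternatives.

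B2m, the light chain shared by all class I molecules, had 28336.2, 29604.9, 30380.9 and 21310.4 normalized counts in KO, against 24853.9, 35862.7, 28874.7 and 31673.9 in WT. The groups overlapped throughout, and the log2 fold change was -0.15 (95% interval -0.51 to 0.22, limma adjusted p = 0.489). Per kilobase of exon, B2m was the most abundant member in both groups, at 31900 in KO and 35300 in WT. H2-D1 followed at 19000 in KO and 24300 in WT, then Cd74 at 13900 in KO and 20400 in WT, and H2-K1 at 10100 in KO and 14300 in WT. All class I heavy chains together came to 34464 ± 4297 normalized counts per kilobase in KO and 44768 ± 4173 in WT (SD, n = 4 each), a ratio of 0.77. KO replicate 3, at 40734, lay above WT replicate 1, at 39838.

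Cd1d1 (chr3:86995834-86999441, minus strand), whose product shows lipid antigens to natural killer T cells, rose. It had 11754.4, 13397.6, 10429.7 and 10208.9 normalized counts in KO, against 2330.0, 4929.5, 3234.2 and 3881.0 in WT. Every KO library lay far above every WT library, and Cd1d1 rose by 1.72 on the log2 scale (SE 0.22, limma adjusted p = 0.000817). It passed under all 18 alternatives, at 1.52 to 1.88. Per kilobase it was the 6th most abundant member in KO, at 4450, and the 11th in WT, at 1400. Its near copy Cd1d2, which holds 19.1% of the 50-base words of Cd1d1, averaged 266 ± 59.3 normalized counts in KO and 93.1 ± 30.7 in WT (SD, n = 4 each), and how reads were split between them is not given in the sources used here.

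Markers of adipocytes moved with Cd1d1: 9 of 10 rose, with a median log2 fold change of 1.70, and the sums of the list did not overlap. Endothelial markers also rose, 5 of 8 in the deposited scaling, with a median of 0.72 and sums of 38334 to 41503 in KO and 15749 to 32975 in WT. Without WT replicate 3, 3 of the 8 endothelial markers passed. Set against the adipocyte transcript Adipoq, per kilobase, Cd1d1 was 0.0606 to 0.102 in KO and 0.083 to 0.0995 in WT. Against Plin1, which coats lipid droplets, it was 0.201 to 0.338 in KO and 0.214 to 0.274 in WT. Both ratios overlapped between the groups. They were chosen after the values were seen and carry no test. The log2 fold changes of the 10 adipocyte markers ran from -0.23 to 4.38, against 1.72 for Cd1d1. Such ratios therefore depend on the marker: Pparg rose by 1.00 and Cfd by 4.38.

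Among 12 tested nonclassical heavy chains, 2 rose and 4 fell. Of all genes, 41.7% were called, 20.2% higher in KO and 21.5% lower. H2-T23 (chr17:36029773-36032855, minus strand), which encodes Qa-1, the ligand of the CD94/NKG2 receptors of natural killer cells, had 3001.5, 2845.6, 3839.5 and 2987.0 normalized counts in KO, against 5172.8, 4050.6, 4855.9 and 5462.5 in WT. KO replicate 3 stood above the other KO libraries but below the lowest WT library. H2-T23 fell by 0.63 (log2, SE 0.13, limma adjusted p = 0.00537) and passed under all 18 alternatives.

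H2-T22 (chr17:36037128-36042747, minus strand), a neighbour of H2-T23 whose product is bound by a set of gamma delta T cells, went the other way. It had 4020.8, 3642.9, 5212.2 and 3889.3 normalized counts in KO, against 2591.4, 3396.6, 2794.2 and 3503.7 in WT. The groups did not overlap, and H2-T22 rose by 0.45 (log2, SE 0.14, limma adjusted p = 0.034). The call was lost without KO replicate 1, 3 or 4 (adjusted p 0.0619, 0.071 and 0.0515) and without WT replicate 1 or 3 (0.082 and 0.0905). Of its 50-base words, 53.5% also occur in other genes, 31.2% in the pseudogene H2-T10, and 1003 exonic bases overlap a gene on the other strand, so its level is uncertain. H2-T22 over H2-T23, per kilobase, was 1.08 to 1.15 in KO and 0.424 to 0.71 in WT, with no overlap. That ratio was chosen after the values were seen.

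H2-M3 (chr17:37270220-37274484, plus strand) presents N-formylated peptides, as bacteria and mitochondria make them. It had 487.2, 390.5, 486.9 and 405.1 normalized counts in KO, against 624.7, 537.6, 533.8 and 700.4 in WT. The groups did not overlap, and H2-M3 fell by 0.43 (log2, SE 0.12, limma adjusted p = 0.0215). It missed the threshold without KO replicate 2 or 4 (0.052 and 0.053) and without WT replicate 1 (0.052), and under quantile normalization (0.0507).

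The other called heavy chains were sparse. H2-M2 (chr17:37480851-37483552, minus strand) had 21.8, 27.3, 24.7 and 8.5 normalized counts in KO, against 88.1, 47.1, 78.0 and 103.0 in WT, with no overlap. It fell by 1.95 (log2, SE 0.40, limma adjusted p = 0.00544), a 3.86-fold lower level, and passed under all 18 alternatives. H2-Q1 had 60.9, 50.4, 66.6 and 44.9 in KO, against 93.6, 84.6, 91.9 and 118.0 in WT. Its groups were apart as well, and it fell by 0.79 (log2, SE 0.19, limma adjusted p = 0.0104), missing the threshold only under quantile normalization (0.0589). H2-M9 was higher, at 31.0, 32.5, 52.7 and 47.3 in KO, against 11.9, 13.5, 7.4 and 32.8 in WT. WT replicate 4 lay above KO replicates 1 and 2, and the rise of 1.43 (log2, SE 0.43, limma adjusted p = 0.0265) was lost without KO replicate 3 or 4 (0.0699 and 0.0634) and without WT replicate 1, 2 or 3 (0.063, 0.053 and 0.0646).

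The remaining nonclassical chains did not pass. H2-Q6 and H2-Q7, which encode Qa-2 antigens, had log2 fold changes of -0.20 and -0.22 (limma adjusted p = 0.598 and 0.489), H2-Q4 of -0.17 (0.476) and H2-T24 of -0.09 (0.568). Between 26.5% and 36.4% of the 50-base words of H2-Q4, H2-Q6 and H2-Q7 recur in other genes. H2-Q2 had 40.2, 20.5, 1.1 and 3.6 normalized counts in KO, against 19.3, 41.4, 38.1 and 15.9 in WT, and a log2 fold change of -1.51 that the spread did not separate from 0 (limma adjusted p = 0.209).

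H2-Q10 (chr17:35470089-35474563, plus strand) encodes a secreted class I chain made mainly by the liver. It had 145.9, 167.5, 275.2 and 276.5 normalized counts in KO, against 65.1, 105.8, 1954.1 and 147.9 in WT. WT replicate 3, the library rich in Alb, held more H2-Q10 than the other 7 together. Over all libraries the log2 fold change was -0.03 (limma adjusted p = 0.983), and without that library it was 1.04 (0.0556). With all libraries in edgeR it was -1.37 (edgeR adjusted p = 0.311). Per the labels' protocols, RNA was extracted from liver as well as from fat in the study. A sum over 8 liver genes, listed after the values were seen, was 570 to 1526 in KO and 115, 232, 60108 and 195 in WT. Whether those transcripts account for the H2-Q10 value was not tested.

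**Figure D2:**
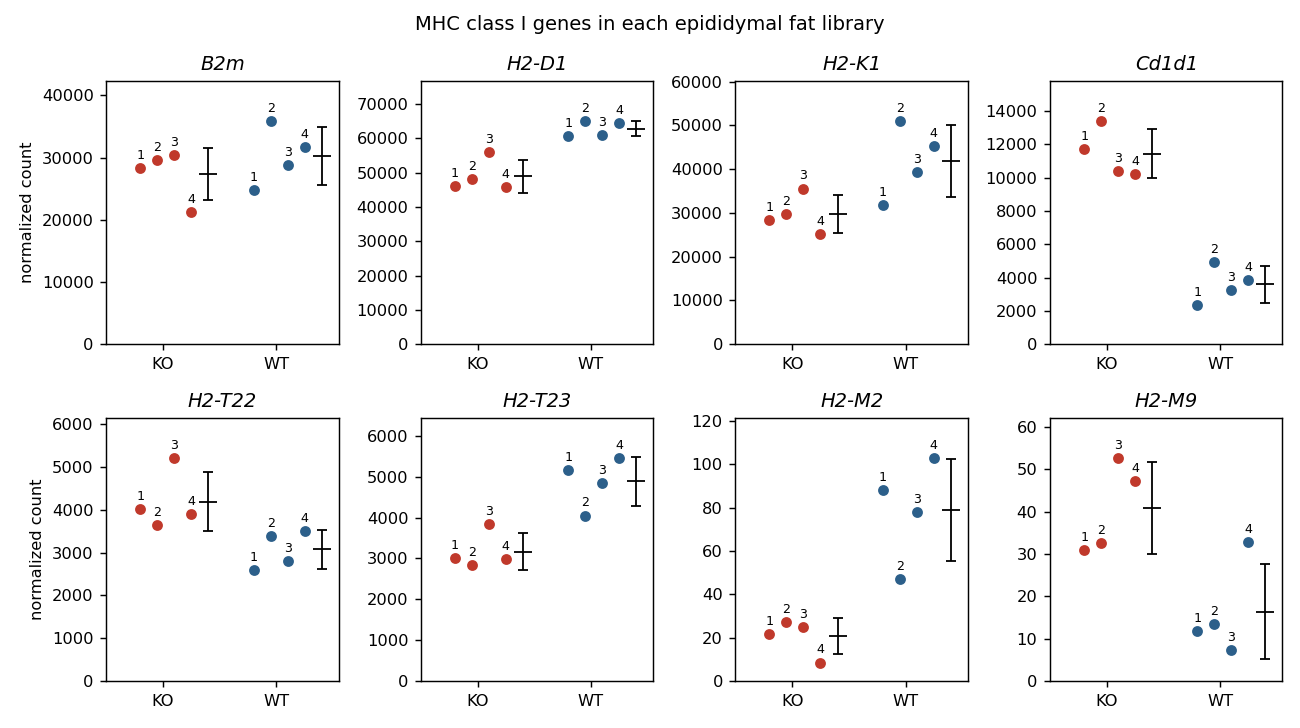
Normalized counts (y axis, linear from 0) of class I genes in each KO library (left, replicates numbered) and WT library (right), with mean and SD beside each group (n = 4). Cd1d1 stands far higher in all KO libraries, H2-D1 and H2-T23 are lower in all of them, and B2m overlaps.

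None of the immunoproteasome subunits Psmb8, Psmb9 and Psmb10, which replace standard catalytic subunits under interferon gamma, passed the test. They had log2 fold changes of -0.37, -0.20 and -0.24 (limma adjusted p = 0.0801, 0.345 and 0.0749). Of the standard subunits, Psmb7, which Psmb10 replaces, rose by 0.32 (adjusted p = 0.0104), at 2591 ± 195 normalized counts in KO and 2075 ± 81.8 in WT (SD, n = 4 each). Psmb5, which Psmb8 replaces, fell by 0.31 (0.0324) but lost its call without KO replicate 1, 2 or 4 and without WT replicate 1, 3 or 4, where its adjusted p reached 0.0869. Psmb6, which Psmb9 replaces, did not pass (0.0687). Psmb10 over Psmb7, per kilobase, was 1.03 to 1.11 in KO and 1.35 to 1.89 in WT. The matching ratios overlapped, with Psmb8 over Psmb5 at 0.143 to 0.189 in KO and 0.145 to 0.194 in WT, and Psmb9 over Psmb6 at 0.106 to 0.152 in KO and 0.0978 to 0.147 in WT.

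The TAP transporter is a dimer of the Tap1 and Tap2 products. Tap1 averaged 1352 ± 107 normalized counts in KO and 1642 ± 269 in WT (SD, n = 4 each), and Tap2 averaged 2242 ± 222 in KO and 1891 ± 157 in WT. Neither passed, with log2 fold changes of -0.27 and 0.24 in opposite directions (limma adjusted p = 0.0975 and 0.0671). Their ratio per kilobase was 0.391 to 0.443 in KO and 0.538 to 0.663 in WT, so that every KO library was below every WT library. This ratio, and those of the proteasome subunits, were chosen after the values were seen and carry no test. Exons of Tap1 and Psmb9 overlap by 212 bases on opposite strands, and those of Tap2 overlap another gene by 533 bases.

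Tapbp, or tapasin, holds empty class I at the transporter, and Tapbpl encodes the related peptide editor TAPBPR. Tapbpl had 744.6, 834.0, 832.0 and 867.1 normalized counts in KO, against 739.4, 655.9, 670.2 and 690.1 in WT. KO replicate 1 was only just above WT replicate 1, and the rise of 0.25 (log2, SE 0.08, limma adjusted p = 0.0295) was lost without KO replicate 2, 3 or 4 (0.0623, 0.0653 and 0.0639) and without WT replicate 2, 3 or 4 (0.0706, 0.0837 and 0.0549). Over the left-out fits, including the fit without both WT replicate 4 and KO replicate 3, the adjusted p of Tapbpl reached 0.106. Tapbp did not pass, at -0.17 (0.126). Erap1, which trims peptides to length, was lower in all KO libraries, at 1706 ± 41.7 in KO and 1849 ± 35.2 in WT (SD, n = 4 each), yet its log2 fold change of -0.12 did not pass (limma adjusted p = 0.137). Its exons overlap 834 bases of Cast on the other strand, and Cast rose by 0.40.

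Nlrc5, the class I transactivator, had 998.6, 967.3, 1029.8 and 935.0 normalized counts in KO, against 996.2, 1080.9, 891.2 and 1160.1 in WT. The groups overlapped, and the log2 fold change was -0.06 (95% interval -0.27 to 0.14, limma adjusted p = 0.594). Outside the 38 genes, 12 genes of class I loading and peptide supply were counted, and 2 rose and 4 fell. Canx and Calr, the chaperones calnexin and calreticulin that fold heavy chains, fell by 0.75 and 0.70 (log2, limma adjusted p = 0.00225 and 0.00716). Lnpep, an aminopeptidase of endosomes used in cross-presentation, rose by 0.47 (0.00186). Sec61a1, a channel of the endoplasmic reticulum, fell by 0.39 (0.0107). These 4 passed under all 18 alternatives, and the median of the 12 was -0.08. The second riser was lost, leaving 1, without KO replicate 1 or 2 and without WT replicate 2, 3 or 4.

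On the class II side, Ciita (chr16:10480059-10528418, plus strand) had 751.5, 918.6, 574.0 and 532.4 normalized counts in KO, against 1023.7, 1148.2, 1252.3 and 1549.6 in WT. The groups did not overlap. Ciita fell by 0.86 (log2, SE 0.19, limma adjusted p = 0.00858) and passed under all 18 alternatives, the smallest change being -0.67.

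H2-DM catalyses the exchange of the invariant chain fragment for peptide. Its beta chain gene H2-DMb1 (chr17:34153072-34160230, plus strand) had 1172.1, 1540.7, 959.9 and 736.1 normalized counts in KO, against 1923.6, 2631.1, 2436.8 and 3196.6 in WT. Every KO library was below every WT library, and H2-DMb1 fell by 1.24 (log2, SE 0.23, limma adjusted p = 0.0041), a 2.36-fold lower level that passed under all 18 alternatives. The alpha chain gene H2-DMa had 854.9, 1023.7, 877.1 and 646.4 in KO, against 1013.6, 1005.9, 1137.2 and 1476.6 in WT. KO replicate 2 lay among the WT libraries, and the fold change of -0.45 did not pass (limma adjusted p = 0.0617). Per kilobase, H2-DMb1 over H2-DMa was 2.81, 3.09, 2.24 and 2.34 in KO, against 3.89, 5.37, 4.40 and 4.44 in WT, a ratio chosen after the values were seen, with no overlap and no test. The second beta gene, H2-DMb2, holds 22.7% of the 50-base words of H2-DMb1, was less abundant, at 171 ± 52.4 in KO and 255 ± 121 in WT (SD, n = 4 each), and did not pass at -0.51 (0.297).

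The abundant peptide-binding chains H2-Aa, H2-Ab1 and H2-Eb1 had smaller fold changes than H2-DMb1. H2-Aa (chr17:34282744-34287823, minus strand), the alpha chain of I-A, had 12929.9, 12758.4, 10675.9 and 7976.3 normalized counts in KO, against 13030.5, 15515.6, 15514.7 and 20236.7 in WT. KO replicate 1 was only just below WT replicate 1, and H2-Aa fell by 0.54 (log2, SE 0.19, limma adjusted p = 0.0468). The call was lost without KO replicate 3 or 4 (0.095 and 0.0945) and without WT replicate 2, 3 or 4 (0.0761, 0.0898 and 0.105). With all libraries it was also lost with no filter (0.052), with TMM scaling (0.0552) and in edgeR (0.059). Over the left-out fits, including the fit without both WT replicate 4 and KO replicate 3, the adjusted p of H2-Aa reached 0.176. H2-Ab1, the beta chain of I-A, had 11495.8, 11896.1, 10507.1 and 7030.3 in KO, against 10269.4, 13183.6, 13549.4 and 19688.0 in WT. WT replicate 1 lay below 3 of the 4 KO libraries, and the fold change of -0.46 (95% interval -0.99 to 0.07) did not pass (limma adjusted p = 0.142).

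H2-Eb1 encodes the beta chain of I-E, whose alpha chain gene is defective in C57BL/6 mice. Its normalized counts were 12673.7, 11694.4, 9864.3 and 7506.9 in KO, against 11251.8, 14125.1, 13704.5 and 19156.2 in WT, and the fold change was -0.48 (limma adjusted p = 0.0917). Cd74, the invariant chain, had 27960.5, 27670.2, 21459.2 and 16212.0 in KO, against 26788.5, 32969.0, 32809.8 and 44358.2 in WT. As with H2-Ab1 and H2-Eb1, WT replicate 1 overlapped the KO libraries. The Cd74 fold change of -0.56 (95% interval -1.06 to -0.07) did not pass (0.0652), although it did in 3 of the 18 alternatives.

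The extreme libraries were shared by most of the 11 class II genes. WT replicate 4 was the highest WT library for all 11, against 25.6% of all genes, and KO replicate 4 was the lowest KO library for 10 of 11, against 32.1% of all genes. Between these extremes the libraries were ordered differently from gene to gene. Class II reads were 0.142% to 0.242% of all reads in KO and 0.241% to 0.414% in WT. Cd74 over H2-Ab1, per kilobase, was 3.12 to 3.72 in KO and 3.45 to 3.99 in WT and overlapped, unlike H2-DMb1 over H2-DMa. Class I shared these extremes in part: WT replicate 4 was the highest WT library for 15 of 25 genes. KO replicate 4 was the lowest KO library for 11 of 25. It differed in KO replicate 3, the highest KO library for 18 of 25 class I and 4 of 11 class II genes, against 24.0% of all genes. Leaving out KO replicate 3 gave 1 class I gene higher and 8 lower in KO, and leaving out KO replicate 4 gave 1 higher and 3 lower, against 4 and 5 with all libraries.

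**Figure D3:**
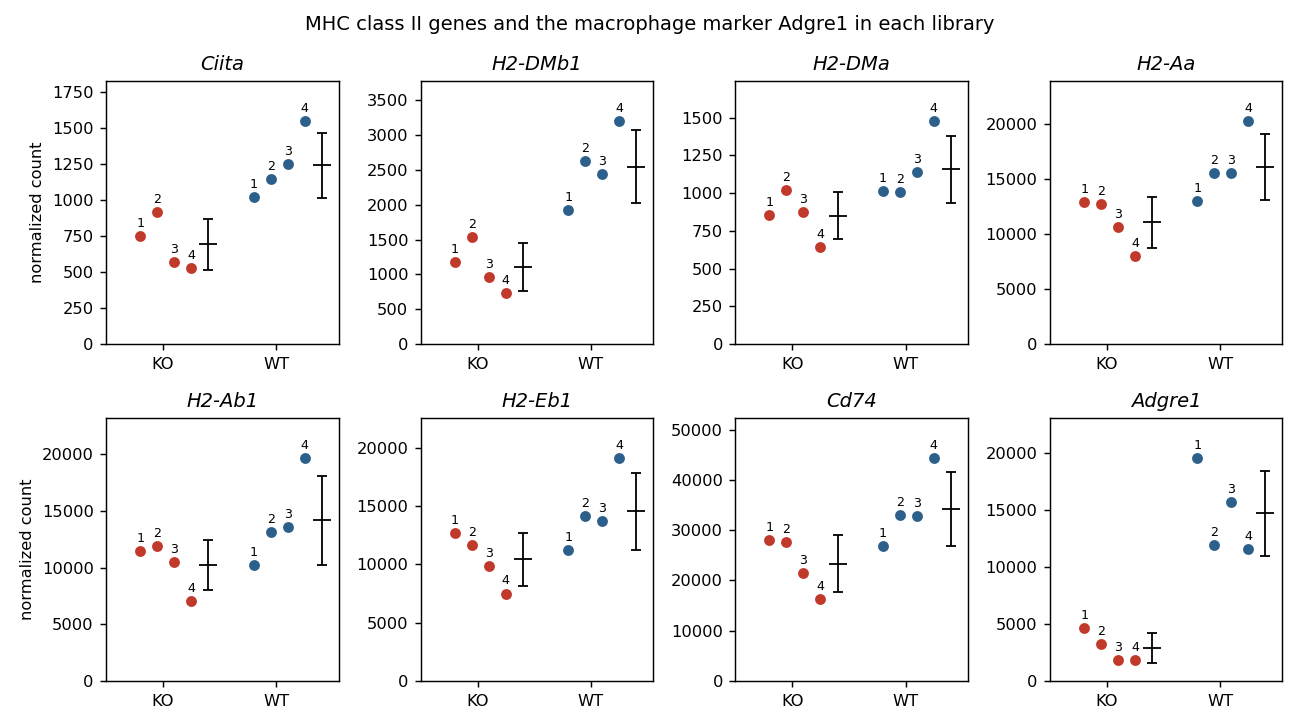
Normalized counts (y axis, linear from 0) of 7 class II genes and the macrophage marker Adgre1 in each KO library (left, replicates numbered) and WT library (right), with mean and SD beside each group (n = 4). Ciita and H2-DMb1 are apart between groups, H2-Ab1, H2-Eb1 and Cd74 overlap, and Adgre1 has the largest fold difference of the 8.

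H2-Oa and H2-Ob encode H2-DO, which restrains H2-DM and is found mostly in B cells. H2-Ob had 140.2, 83.7, 268.7 and 116.4 normalized counts in KO, against 387.1, 110.6, 139.2 and 427.9 in WT. Its high libraries were WT replicates 4 and 1 and then KO replicate 3, and the groups overlapped. H2-Oa had 32.2, 27.3, 60.2 and 14.6 in KO, against 99.1, 31.7, 39.9 and 99.2 in WT, and H2-Eb2, another I-E beta gene, had 18.4, 8.5, 34.4 and 7.3 in KO, against 79.8, 20.2, 31.6 and 80.5 in WT. None of these passed, with fold changes of -0.70, -0.98 and -1.60 (limma adjusted p = 0.312, 0.162 and 0.0635).

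The same 3 libraries were highest for 4 class II genes, H2-Ob, H2-Oa, H2-Eb2 and H2-DMb2, and for 6 of 8 B cell markers, against 1.59% of all genes and 1 of 25 class I genes. This set of 3 libraries was chosen after the values were seen, so these shares are a description and carry no test. Cd79a, part of the B cell receptor, had 78.1, 60.7, 339.7 and 75.2 normalized counts in KO, against 612.8, 145.2, 173.6 and 712.5 in WT. B cell markers summed to 313 to 1581 in KO and 1073 to 3350 in WT. Their median log2 fold change was -1.64, and 2 of 8, Cd22 and Fcrla, fell. Without KO replicate 3, 6 of 8 fell, and without WT replicate 2, 3 of 8 did. How far B cells account for these 4 genes was not tested.

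**Figure D4:**
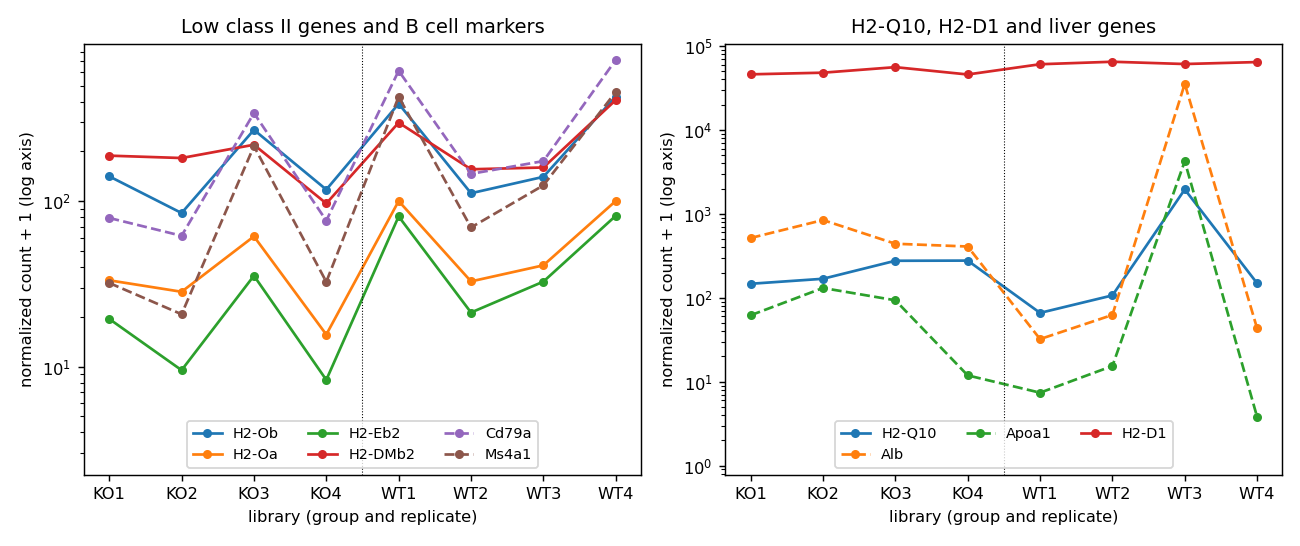
Normalized count + 1 (y axis, log scale) in each library (x axis, KO replicates then WT replicates). Left, H2-Ob, H2-Oa, H2-Eb2 and H2-DMb2 (solid) are highest in KO replicate 3 and WT replicates 1 and 4, as are the B cell markers Cd79a and Ms4a1 (dashed). Right, H2-Q10 peaks in WT replicate 3 at 1954.1 normalized counts with the liver genes Alb and Apoa1 (dashed), and H2-D1 does not.

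Macrophage markers were lower as well. Of 12, 11 fell, with a median log2 fold change of -1.43, the same count under every alternative, and none was at 0 in any library. Adgre1, which encodes F4/80, fell by 2.42 (log2, limma adjusted p = 0.000911). Per kilobase, Cd74 over Adgre1 was 11.7, 16.7, 22.4 and 16.7 in KO, against 2.64, 5.33, 4.03 and 7.37 in WT, and H2-Ab1 over Adgre1 was 3.13 to 7.17 in KO and 0.661 to 2.14 in WT. Both ratios to Adgre1, chosen after the values were seen, were apart between the groups, with all KO libraries higher. Such ratios depend on the marker: the log2 fold changes of the 12 markers ran from -2.73 to -0.12. Mertk, at -0.12, was the marker that did not pass (limma adjusted p = 0.579), and it changed less than Cd74, at -0.56. The part of macrophages in the class II levels was not tested.

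Dendritic cell markers overlapped between groups in sum, at 3268 to 3844 normalized counts in KO and 3464 to 4182 in WT. Of 10, 3 rose and 1 fell (40.0% called, beside 41.7% of all genes), with a median of -0.16. Of the 10 fold changes, 6 were negative, the lowest being Ccr7 at -1.01, which did not pass (limma adjusted p = 0.0569). Itgae, the integrin CD103, rose by 1.56 (log2, limma adjusted p = 0.000879), Cd209a by 1.53 (0.00373) and the transcription factor gene Zbtb46 by 0.74 (0.00353). Clec10a, a lectin also carried by macrophages, fell by 0.35 (0.0193). Which cells carried the transcripts of this list was not tested. The number falling was 3 without WT replicate 2 and 2 without KO replicate 3, with 3 risers in both. Fibroblast and progenitor markers summed to 55407 to 91183 normalized counts in KO and 77617 to 111698 in WT. Of 8, 3 fell (37.5% called, beside 41.7% of all genes), with a median of -0.18.

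Most genes of a list around class II antigen processing fell, though not all of them act on antigen themselves. Of 12 outside the 38 genes, 10 fell under every alternative, with a median log2 fold change of -1.31. Ctss, the cathepsin that cuts the invariant chain, had 3389.9, 5474.2, 3406.3 and 2162.3 normalized counts in KO, against 37666.1, 14991.5, 25714.8 and 16106.6 in WT, and fell by 2.68 (log2, limma adjusted p = 0.000957). The groups were far apart. Lgmn, the endosomal protease legumain, fell by 2.10 (0.00046), the metal transporter gene Slc11a1 by 2.24 (0.00117) and Unc93b1, which brings Toll-like receptors to endosomes, by 1.15 (0.000806). Many of these genes are also abundant in macrophages. The 2 that did not pass were Cst3, the cystatin C gene, at -0.05 (0.729), and March8, a ubiquitin ligase gene, at -0.01 (0.906).

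Factors that act on MHC promoters were mixed. Of 14, 4 fell (28.6% called, beside 41.7% of all genes), with a median of -0.07. Irf8, a factor of myeloid and B cells, fell by 1.62 (log2, limma adjusted p = 0.000508), Rel by 1.30 (0.000627), Nfya, a subunit of the factor that binds the Y box, by 1.16 (0.00111), and Nfkb1 by 0.39 (0.00182). These 4 passed under all 18 alternatives. Rfx5, which binds the X box, had 354 ± 35.5 normalized counts in KO and 345 ± 27.1 in WT (SD, n = 4 each) and did not pass (0.805), and neither did Irf1 at 0.13 (0.449).

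Interferon gamma, signalling through the kinases Jak1 and Jak2, raises both classes. Of its 8 listed genes, 7 were tested, and 1 rose and 2 fell (42.9% called, beside 41.7% of all genes). Its receptor chains went in opposite directions: Ifngr1 rose by 0.49 (log2, limma adjusted p = 0.00344) and Ifngr2 fell by 0.91 (0.0049), both under all 18 alternatives. The other faller, Jak1, at -0.27 (0.0291), was lost without KO replicate 1, 3 or 4 and without WT replicate 1, 3 or 4, where its adjusted p reached 0.103. Ifng stayed below the filter, at 0.0 to 3.2 normalized counts in KO and 4.8 to 6.4 in WT.

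T cell genes that read MHC were sparse. Of 7, 1 rose and 4 fell, with a median of -1.25. Cd8a, the co-receptor for class I, had 29.9, 17.1, 127.9 and 46.1 normalized counts in KO, against 195.4, 114.4, 185.7 and 193.8 in WT. KO replicate 3, the highest KO library for most class I genes, was also the highest for Cd8a and lay above WT replicate 2. Cd8a fell by 1.98 (log2, limma adjusted p = 0.0191) under all 18 alternatives. Lag3, an inhibitory receptor for class II, rose by 0.71 (0.0057), also under all 18. The number falling was 1 without KO replicate 2 or 4 or without WT replicate 1, 3 or 4, and 2 without KO replicate 1.

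Promoters are shown because genes of the same region and family moved in different directions. Class II and many class I promoters carry an X box, bound by the RFX complex, and a Y box, an inverted CCAAT bound by NF-Y. Ciita and Nlrc5 dock on these factors. Class I promoters also hold an interferon-stimulated response element (ISRE) and an NF-kB site. The windows below come from RefSeq (GRCm38.p6), run 5′ to 3′ from 250 bases before to 50 after the transcript start, and show in capitals every match to a core on either strand. The X core was spelled ACNGATG and the Y core was taken as ATTGG. The ISRE core was spelled GAANNGAAA. The NF-kB core was spelled GGGANTNCC. H2-DMb1 (chr17:34152941-34153240, plus strand) and H2-Eb1 (chr17:34305617-34305916, plus strand) stand for class II, and H2-Q10 (chr17:35469839-35470138, plus strand) for the chain with the liver-rich library. H2-D1 (chr17:35262844-35263143, plus strand) is shown as a class I gene that fell. It does not stand for all of them, since H2-T23, which also fell, held a Y core and none of the other cores as spelled.
H2-DMb1: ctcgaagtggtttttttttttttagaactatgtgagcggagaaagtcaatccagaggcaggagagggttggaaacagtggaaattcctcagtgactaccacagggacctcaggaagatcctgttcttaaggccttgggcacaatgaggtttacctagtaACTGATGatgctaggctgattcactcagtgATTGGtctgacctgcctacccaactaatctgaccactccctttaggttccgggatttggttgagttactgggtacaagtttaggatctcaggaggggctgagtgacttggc
H2-Eb1: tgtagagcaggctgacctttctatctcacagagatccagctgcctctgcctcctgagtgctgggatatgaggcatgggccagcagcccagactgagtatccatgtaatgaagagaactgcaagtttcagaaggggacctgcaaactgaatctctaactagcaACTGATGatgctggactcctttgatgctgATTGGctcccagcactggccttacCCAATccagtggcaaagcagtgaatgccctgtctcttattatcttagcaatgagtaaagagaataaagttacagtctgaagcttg
H2-D1: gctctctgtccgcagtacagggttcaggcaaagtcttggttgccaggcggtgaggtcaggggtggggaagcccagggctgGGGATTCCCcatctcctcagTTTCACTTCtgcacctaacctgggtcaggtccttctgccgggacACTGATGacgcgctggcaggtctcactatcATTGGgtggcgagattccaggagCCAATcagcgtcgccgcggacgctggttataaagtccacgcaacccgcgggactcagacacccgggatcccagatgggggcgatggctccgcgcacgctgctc
H2-Q10: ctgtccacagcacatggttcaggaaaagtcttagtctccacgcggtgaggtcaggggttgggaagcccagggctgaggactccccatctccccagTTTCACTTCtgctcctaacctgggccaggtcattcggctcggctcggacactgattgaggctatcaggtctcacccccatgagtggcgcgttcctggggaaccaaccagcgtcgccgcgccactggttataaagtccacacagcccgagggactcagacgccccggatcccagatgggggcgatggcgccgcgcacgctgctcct
In H2-DMb1 and H2-Eb1 an X core was followed by a Y core, starting 30 and 29 bases later. H2-D1 held the same pair 30 bases apart, another Y core in reverse, an ISRE core in reverse, and an NF-kB core that matches at the same 9 bases on both strands. The H2-Q10 window held the ISRE core and none of the other cores as spelled.

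RefSeq windows were matched for 29 of the 38 genes, 20 of class I, 8 of class II and H2-Ke6. The genes with no window in the table were Cd1d1, Cd74, Ciita, H2-Ab1, H2-Q1, H2-T24, Nlrc5, Tap2 and Tapbpl. The X core was found in 6 of 8 class II and 9 of 20 class I genes, against 9.85% of all 32851 windows. The Y core was found in 8 of 8 class II and 15 of 20 class I genes, against 37.4% of windows. The ISRE core as spelled was found in 0 of 8 class II and 8 of 20 class I genes, against 7.52%. That spelling allows only 1 spacing between its blocks. The windows of B2m, Erap1, H2-T22 and H2-T23 hold the same blocks 1 base further apart, which was not counted. The ISRE counts therefore do not show which promoters lack the element. The NF-kB core was found in 1 of 8 class II genes, H2-Aa, and 6 of 20 class I genes, against 3.95%. A match is a description of letters and not a bound site.

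An X core with a Y core starting 29 or 30 bases downstream, a spacing chosen after the matches were seen, occurred in 13 of all windows (0.0396%), and 9 of those 13 belong to the members. They are H2-DMb1, H2-DMb2, H2-Eb1, H2-Eb2, H2-D1, H2-Q4, H2-Q6, H2-Q7 and H2-M3. Of these 9, H2-DMb1, H2-D1 and H2-M3 fell in KO, and the other 6 did not pass. H2-T22, which rose, and H2-T23, which fell, both held Y cores and no X core in their windows.

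**Figure D5:**
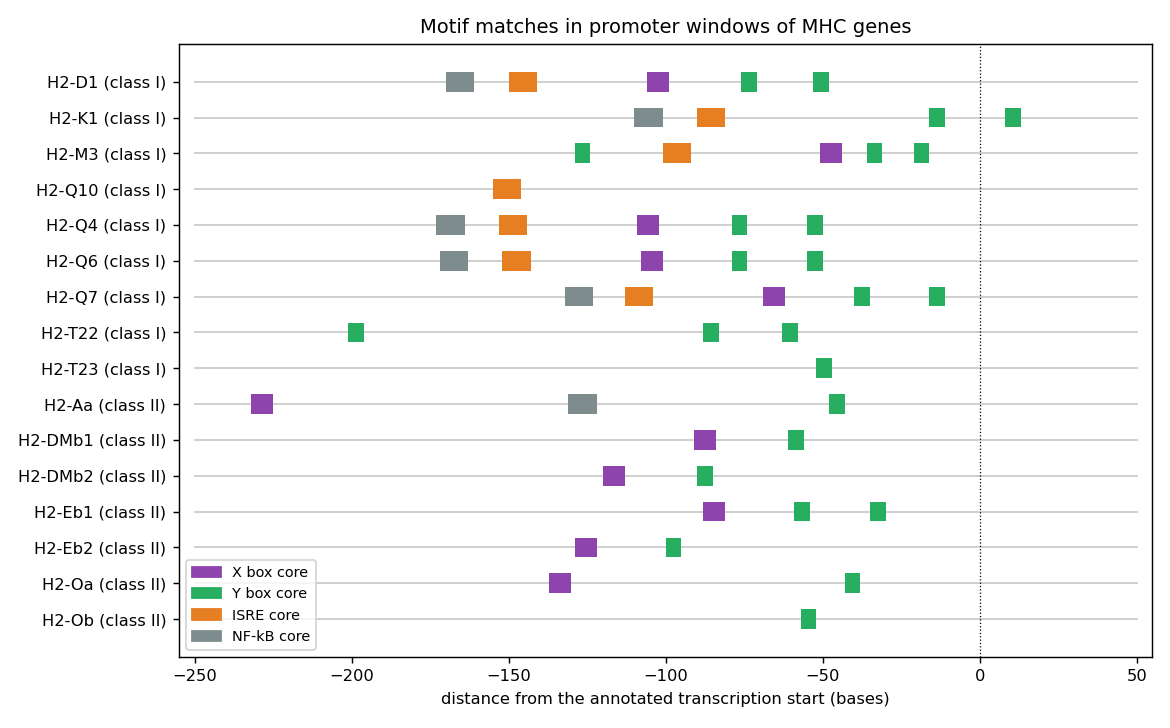
Positions of the X, Y, ISRE and NF-kB cores (coloured marks) in the promoter windows of 9 class I and 7 class II genes (y axis), in bases from the annotated transcript start (x axis, from 250 before to 50 after). The X and Y pair 29 or 30 bases apart is seen in 4 class II and 5 class I genes. ISRE marks, for the core as spelled, are seen in 7 of the 9 class I genes and in none of the 7 class II genes. A missing ISRE mark does not show that a promoter lacks the element, since other spacings were not searched.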

How the data were processed

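The deposited values are a signal per gene, a normalized count, for 4 KO and 4 WT libraries of total RNA prepared with an Illumina TruSeq kit, per the labels' protocols. Per the submitters' processing notes, the build was GRCm38.p6 and the tools included STAR 2.7.7 as well as DESeq2, in roles the notes do not state. For the read counter, strand setting, handling of shared reads, annotation and filters, the sources used here give nothing. Within each library 100% of values were whole multiples of 1 step (tolerance 0.01 of a read), which gave 23681088 to 33817478 reads per library. Of the identifiers, 24558 matched GENCODE M21 with their version, 24802 in all, and 19 did not.

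Values were tested with limma 3.58.1 (R 4.3.3; trend and robust moderation, group alone in the design) on log2(normalized count + 1), for genes with at least 10 in at least 4 libraries. P-values were Benjamini-Hochberg adjusted over all 17798 genes tested, with a call under 0.05, and the fit was tested on simulated data. A pseudocount of 1 understates changes of sparse genes. Levels between genes are normalized counts per 1000 bases of annotated exon. Alternatives were edgeR 4.0.16 and DESeq2 1.42.0 on the recovered reads, other scalings, filters, pseudocounts, library weights, a replicate block and left-out libraries. Fits without a library kept the filter of 10 in at least 4 of the remaining libraries.

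All tested members could be named, with up to 4 genes of smallest p from each further list and each marker list by count and sum. Members, lists and alternatives were chosen with earlier results of these data known. Pseudogenes that match the rule's symbols were left out of the counts. No sequence of a protein was used here. Counts of the further lists include genes that are not reported by name.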

Additional observations from a re-analysis of the deposited data

Results flagged for a closer look

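Among 74 groups of 4 values screened, those of the 37 tested genes in KO and in WT, 4 held 1 library far from the rest of its group by Dixon's test, and chance marks about 1 group in 20. H2-Q10 in WT was highest in WT replicate 3, at 1954.1 normalized counts, with 65.1 to 147.9 in the other WT libraries. H2-T23 in KO was highest in KO replicate 3, at 3839.5, with 2845.6 to 3001.5 in the others. Tap1 in KO was also highest in KO replicate 3, at 1512.4, with 1284.7 to 1313.4 in the others. Psmb9 in WT was highest in WT replicate 4, at 882.0, with 691.7 to 719.3 in the others. WT replicate 3 also carried the liver transcripts given above, and WT replicate 4 was rich in Akr1b7. KO replicate 3 was the highest KO library for 18 of 25 class I genes. Whether these are related was not tested.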

How the results depend on the processing

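Results were recomputed under 18 alternatives. All 11 class II fold changes stayed negative in each, and Cd1d1, Ciita, H2-DMb1, H2-M2 and H2-T23 passed in each. H2-Q1 passed in 17, H2-M3 and H2-M9 in 13, H2-T22 in 12, H2-D1 and Tapbpl in 10 and H2-Aa in 8. Leaving out 1 library at a time gave 4 to 9 called class I genes (9 with all libraries; 4 without KO replicate 4), 2 to 4 class II genes (3 with all) and 5481 to 6892 genes overall (7423 with all). DESeq2 called 6 class II genes, and the cause was not tested. Library weights raised the count over all genes to 9767, with 13 of class I. Signs turned only for genes that did not pass. Nlrc5 was 0.00 under quantile normalization and 0.06 with library weights, and H2-T24 was 0.02 under quantile normalization. H2-Q10 was 0.12 under quantile normalization, 0.14 without KO replicate 1, 0.07 without KO replicate 2 and 1.04 without WT replicate 3, in a range from -0.59 to 1.04 over left-out libraries. Over all 18 alternatives its range was wider, from -2.13 to 1.04, with -1.37 in edgeR. The quantile normalization moved the median of all genes by 0.104 (log2), and relative to that the medians were -0.29 for class I and -0.67 for class II. The replicate numbers did not pair the libraries: correlations of same-numbered deviations were -0.1433, 0.0511, -0.0405 and 0.1722. With the replicate block, 6 class I, 2 class II and 6266 genes overall passed, without H2-D1 (0.092), H2-T22 (0.0782), Tapbpl (0.0915) and H2-Aa (0.12). H2-M2, H2-M9, H2-Q2, H2-Oa and H2-Eb2 rest on few reads, which limits their precision.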

Other observations

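Besides the protein-coding genes, 6 genes of the table carry an H2- symbol and another annotated type: H2-K2, H2-Q5, H2-Bl, H2-T-ps, H2-T10 and H2-M6-ps. H2-K2 averaged 209 ± 52.2 normalized counts in KO and 258.5 ± 29.3 in WT (SD, n = 4 each), and H2-Q5 averaged 349 ± 41.9 in KO and 371 ± 65.7 in WT. Neither passed (limma adjusted p = 0.185 and 0.685).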
